A study of Mus musculus with 6 samples.

Results

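Circadian clock genes of mouse pancreatic islets were followed on 6 Affymetrix arrays: the period genes Per1, Per2 and Per3, the cryptochrome genes Cry1 and Cry2, the activator gene Clock, the nuclear receptor genes Nr1d1 and Nr1d2 (REV-ERB alpha and beta), and the output genes Dbp and Tef. The members were all probe sets that the platform annotation assigns to 1 of these 10 genes, which gave 24 of the 45037 probe sets other than array controls and 10 of 18193 named genes. Of the 24, 17 had a mean signal above the median of all probe sets (6.60 on the log2 scale) and entered the test, at least 1 for each gene. The array carries several probe sets for most of these genes, each a group of short probes for 1 stretch of the transcript, and the one with the highest mean over the 6 arrays is called the brightest here.

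The islets were from 10-week-old males of the OF1 strain, treated with bisphenol A (BPA), a component of plastics with oestrogen-like activity, or with vehicle alone, tocopherol-stripped corn oil. There were 3 arrays per group. The text on the series' design has 100 µg/kg/day of BPA injected under the skin for 4 days, as doses of 50 µg/kg, with islets taken 16 hours after the final injection. The samples' own protocol has 2 days at that daily dose, and their source names have 1 nM for 48 hours, so the labels disagree on the treatment. The series' title asks what brief exposure in the living animal does to islets, and neither the hour of the day at which islets were isolated nor the light schedule is given in the sources used here. Each sample is a whole-islet RNA extract, so fewer cells of a type and less RNA per cell cannot be told apart.

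The mammalian clock is a loop of transcription factors. CLOCK pairs with BMAL1, the product of Arntl, and the pair binds E-boxes in the period, cryptochrome, Nr1d and Dbp genes; period and cryptochrome proteins then accumulate and silence the pair, while REV-ERB proteins silence Arntl, Clock and Nfil3. DBP and TEF are PAR bZIP factors that bind D-boxes, among them those of period genes. In peripheral tissues of mice, Arntl and Clock transcripts peak around the end of the night, Nr1d1, Dbp, Tef and the period genes peak in turn from midday to dusk, and Cry1 peaks later, in the night. Beta cells hold such a clock, and its loss in mice impairs insulin secretion.

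Sequences upstream of the transcription start are shown for Per1, Per3 and Tef, whose signal was high on the arrays where Dbp was high, and for Cry1, which had its lowest value on the array where Dbp was highest. Each is the 250 bases before an annotated start, from RefSeq on build GRCm38.p6, 5′ to 3′ on the gene's strand, and capitals mark the motifs described next. The coordinates are chr11:69098699-69098948 (plus strand) for Per1, chr4:151044666-151044915 (minus) for Per3, chr15:81802423-81802672 (plus) for Tef and chr10:85185055-85185304 (minus) for Cry1.
Per1: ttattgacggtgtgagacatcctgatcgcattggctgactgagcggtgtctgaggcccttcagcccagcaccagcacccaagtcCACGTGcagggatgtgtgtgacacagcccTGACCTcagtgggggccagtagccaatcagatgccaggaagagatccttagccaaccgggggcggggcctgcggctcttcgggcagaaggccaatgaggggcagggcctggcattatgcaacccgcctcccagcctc
Per3: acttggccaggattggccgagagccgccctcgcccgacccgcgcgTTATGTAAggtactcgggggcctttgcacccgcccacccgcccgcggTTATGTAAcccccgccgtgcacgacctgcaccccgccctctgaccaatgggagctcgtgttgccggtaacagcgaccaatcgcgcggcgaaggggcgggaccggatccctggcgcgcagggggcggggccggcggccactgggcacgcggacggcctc
Tef: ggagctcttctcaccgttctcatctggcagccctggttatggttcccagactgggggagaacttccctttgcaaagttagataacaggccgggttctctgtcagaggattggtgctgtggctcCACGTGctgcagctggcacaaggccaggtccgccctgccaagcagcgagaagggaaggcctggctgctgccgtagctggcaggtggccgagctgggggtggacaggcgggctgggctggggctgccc
Cry1: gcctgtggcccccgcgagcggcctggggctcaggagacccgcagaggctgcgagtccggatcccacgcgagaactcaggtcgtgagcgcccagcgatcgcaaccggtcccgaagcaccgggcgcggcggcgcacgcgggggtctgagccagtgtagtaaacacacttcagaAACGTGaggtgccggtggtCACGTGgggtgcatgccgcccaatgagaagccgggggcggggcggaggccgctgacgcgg

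Windows of 300 bases, from 250 before to 50 after a start, were searched on both strands for 9 of the 10 members (13 windows); Per2 was not matched. The E-box CACGTG lay 166 bases before the start shown for Per1, 60 bases before that of Cry1, and in both windows of Tef, 127 and 138 bases before their starts; 7.15% of all 32851 windows held one. The variant CACGTT was found in the windows of Cry1, Cry2 and Nr1d1 and in 4.68% of all windows. The D-box, searched as TTATGTAA or TTACGTAA, occurred at 2 places in the Per3 window, 205 and 158 bases before the start, and in 1.06% of all windows. The core site AGGTCA of REV-ERB and ROR receptors was in windows of Per1, Clock and Nr1d2 and in 16.3% of all, and the cAMP response element TGACGTCA was in none of the members' windows and in 1.79% of all. No match overlapped another. The Dbp window, the second window of Per1 and the other windows of Clock held none of these letters. The shares are per window, and some members had several windows. All matches are of letters within short windows, and no binding was measured.

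The array medians lay between 6.55 and 6.65 on the log2 scale, and precision is limited by how few arrays there are. Replicate 3 of each group stood apart: on the main axis of a principal component analysis, with 55.9% of the variance of tested probe sets, these 2 arrays scored 47.2 and 36.3 and the other 4 from -37.5 to -3.2. Of 9 beta cell markers 8 were on the array, with mean log2 levels of 13.29 to 13.33 in controls and 13.24 to 13.37 after BPA. Acinar markers, which come from exocrine tissue, were also bright (13 of 16 on the array, 11.90 to 13.84 in controls and 12.85 to 14.14 after BPA) and were lowest in replicate 3 of both groups.

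Among the activators, the brightest probe set of Clock read 10.79, 11.02 and 10.67 (log2 signal, control replicates 1, 2 and 3, the order used throughout) and, after BPA, 10.97, 11.14 and 10.42. Replicate 3 was lowest in both groups, and the groups overlapped. A further probe set read 10.50, 10.86 and 10.33 in controls and 10.35, 10.51 and 10.24 after BPA, and another 9.86, 10.05 and 9.53 against 10.08, 10.08 and 9.60, so replicate 3 was lowest on all 3 tested probe sets of Clock. The dimmest one, not tested, went the other way, with its highest value, 7.34, in control replicate 3 and 6.94 in BPA replicate 3 against 5.87 to 6.99 elsewhere.

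Of the repressors, Per1, which also responds to glucocorticoids and cAMP, read 9.35, 9.15 and 10.05 in controls and 8.62, 9.28 and 10.23 after BPA. Both replicate 3 arrays lay above the other 4, and the lowest value was BPA replicate 1. Its range over the 6 arrays was 1.61, and 94.6% of all tested probe sets had a smaller SD. Per2, a core repressor, had 7.56, 7.31 and 8.41 in controls and 7.14, 7.64 and 7.59 after BPA on its brightest probe set. Its second tested probe set read 6.97, 6.57 and 8.09 against 6.47, 6.65 and 7.97. Control replicate 3 was therefore the highest array on both, while BPA replicate 3 stood out on the second alone. Per3, whose protein is less needed for the rhythm, read 7.73, 7.74 and 8.15 in controls and 7.29, 7.25 and 7.95 after BPA. Another probe set of it read 6.59, 6.75 and 7.32 against 6.53, 6.57 and 7.55, and replicate 3 was again the highest of each group on both.

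The cryptochromes differed from each other. Cry1, the strong late repressor, read 7.32, 6.76 and 7.07 in controls and 7.55, 7.59 and 6.55 after BPA. Its lowest array was BPA replicate 3, but control replicate 3 lay between the other controls. Cry2 read 8.78, 9.21 and 9.49 in controls and 8.81, 9.38 and 9.54 after BPA, so that replicate 1 was lowest and replicate 3 highest in both groups. Each cryptochrome had a single probe set.

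The REV-ERB genes also had separate patterns. Nr1d1 read 7.14, 7.58 and 7.02 in controls and 7.01, 7.13 and 7.62 after BPA: its highest values were in control replicate 2 and BPA replicate 3, and control replicate 3 was near the bottom. Nr1d1 is transcribed from the strand opposite to Thra, and the ends of these genes overlap. Nr1d2, which acts alongside it, read 11.44, 11.81 and 11.67 in controls and 11.12, 10.87 and 11.62 after BPA. BPA replicates 1 and 2 were the lowest of the 6, and BPA replicate 3 lay among the controls.

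The brightest probe sets of the outputs Dbp and Tef ordered the arrays alike, apart from BPA replicates 1 and 2. On its brightest probe set Dbp read 10.50, 10.26 and 10.69 in controls and 10.06, 10.07 and 11.58 after BPA, a range of 1.52, and 93.9% of all tested probe sets had a smaller SD. The other probe set of Dbp read 7.61, 7.52 and 8.10 against 7.83, 7.50 and 8.76. Both put BPA replicate 3 highest and control replicate 3 second. Tef read 9.58, 9.56 and 9.74 in controls and 9.50, 9.42 and 9.95 after BPA, the same 2 arrays on top within a range of only 0.53. Its other tested probe sets disagreed: 1 read 6.66, 6.82 and 6.84 against 6.45, 6.11 and 6.79, and 1 read 7.01, 6.85 and 6.67 against 6.92, 7.07 and 6.76, with replicate 3 lowest. The name of the last, which ends in s_at, marks probes that can match more than 1 transcript, as do those of the brightest probe set of Dbp.

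**Figure D1:**
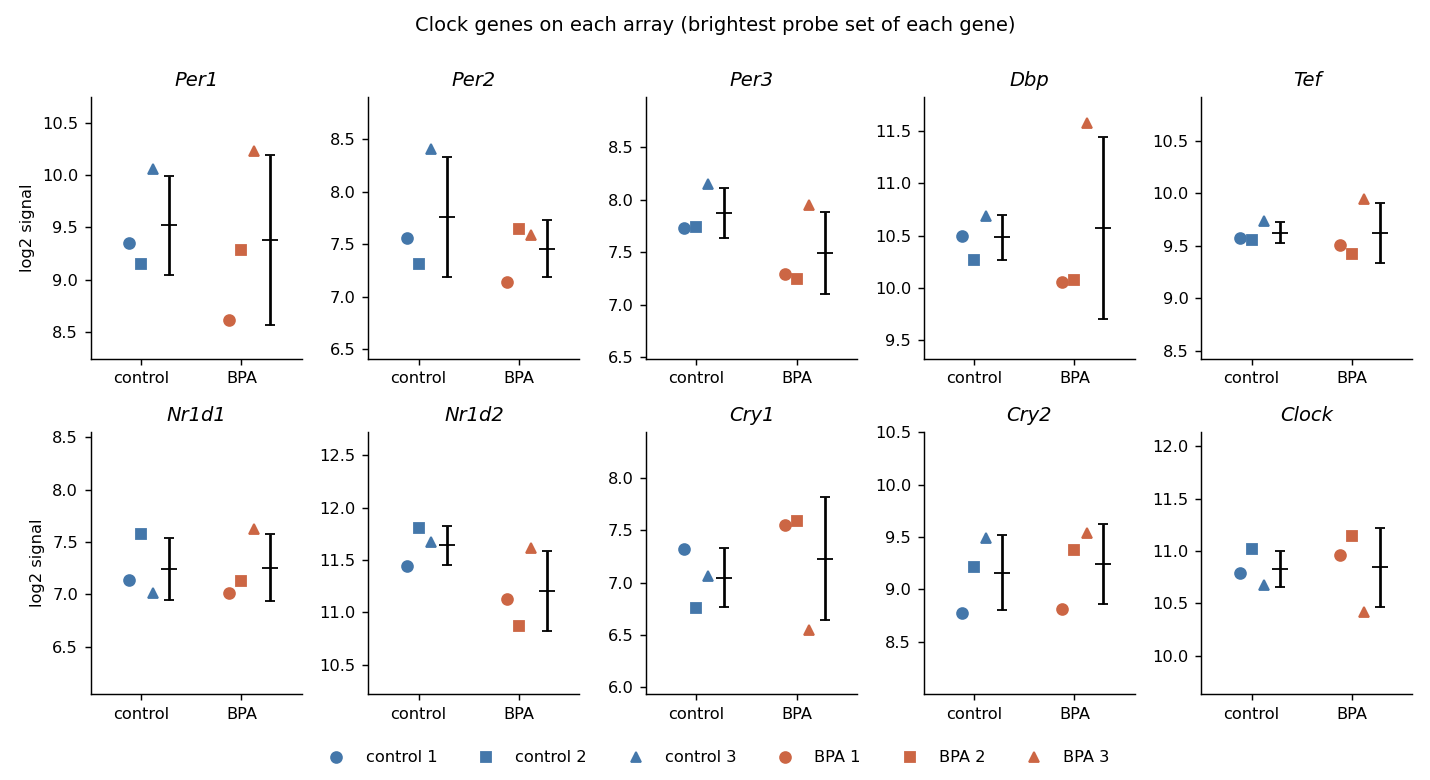
Log2 signal of the brightest probe set of each clock gene on the 6 arrays, controls in blue and BPA in orange, with the replicate number as the symbol and the group mean with its SD (n = 3) as a black bar. Every panel spans the same log2 range, and the groups overlap in all 10; the triangles (replicate 3) are at the top for Per1, Per3, Dbp, Tef and Cry2 and at the bottom for Clock.

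The 7 probe sets below the filter were dim. The highest value of any was the 7.34 of Clock given above. Among the others, a Per3 probe set read 5.38, 6.48 and 6.37 in controls and 4.93, 4.90 and 6.30 after BPA, and another 6.34, 6.59 and 6.59 against 5.80, 6.22 and 6.61. The remaining ones, of Per2, Per3 and Nr1d2, varied by 0.28 to 0.42 over the 6 arrays. That of Per2 read 5.96, 5.99 and 6.09 against 6.20, 6.03 and 6.26. Those of Per3 read 5.26, 5.05 and 4.97 against 5.23, 5.17 and 5.03, and 4.71, 4.71 and 4.55 against 4.60, 4.55 and 4.83. That of Nr1d2 read 5.34, 5.27 and 5.13 against 5.38, 5.34 and 5.55.

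How genes of opposite phase varied against each other was read from the differences between arrays. Both replicate 3 arrays lay above the other 4 for 8 of the 17 tested probe sets, of Per1, Per2, Per3, Cry2, Dbp and Tef, where 14.6% of all tested probe sets did so. Both lay below the other 4 for 4 of the 17, all 3 tested probe sets of Clock and 1 of Tef, where 21.3% of all tested probe sets did so. This pattern was noticed in the values. The share of probe sets below is near the background, and the share above exceeds it. Arntl, the partner of Clock, read 9.10, 9.09 and 8.65 in controls and 9.31, 9.12 and 8.23 after BPA on its brightest probe set, so replicate 3 was lowest in both groups. Its other probe set did not order the arrays in this way, with 7.40, 7.83 and 7.66 against 6.99, 6.95 and 7.34. Npas2, which can replace Clock, was dim (4.77 to 5.20).

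**Figure D2:**
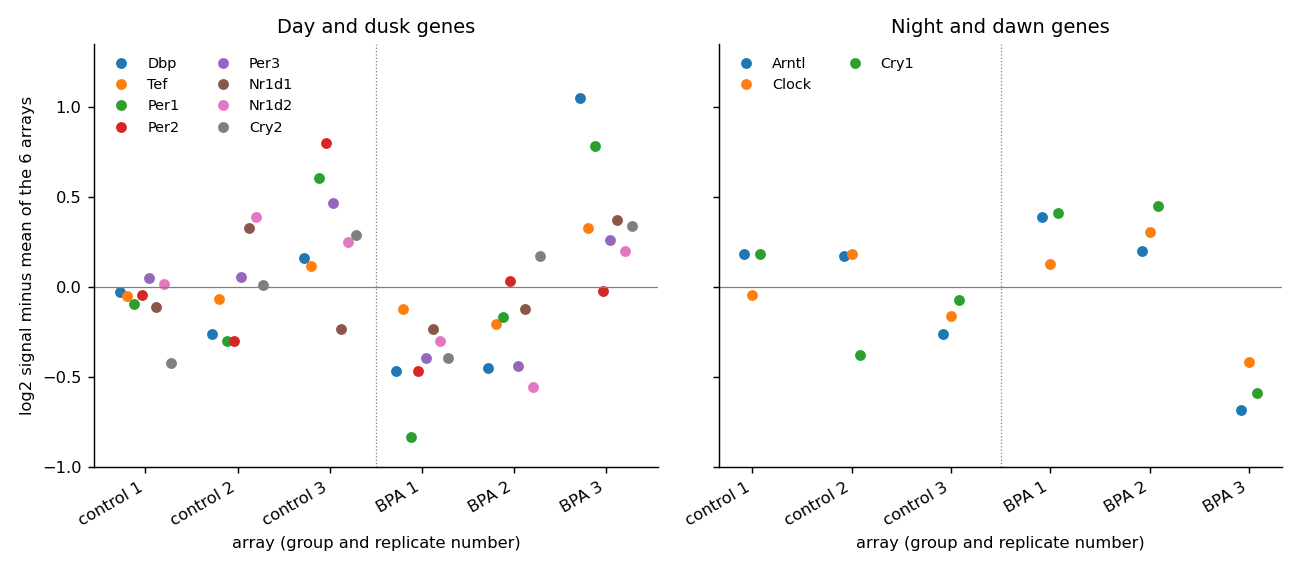
Log2 signal minus the mean of the 6 arrays for each array, on the left for genes that peak from midday to dusk or are grouped with them here (Cry2), on the right for genes that peak in the night or at dawn. Points are the brightest probe sets; BPA replicate 3 has the highest Dbp and Per1 and the lowest Arntl, Clock and Cry1, and control replicate 3 has high Per1 and Per2 with Nr1d1 below its mean.

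Correlations over the 6 arrays were computed for 19 pairs: Dbp with each other member, and Arntl with all 10. Tef followed Dbp with a Pearson r of 0.971 (exact permutation p = 0.00278, adjusted over the 19 pairs 0.0264) and a Spearman rho of 0.943 (exact p = 0.0167, adjusted 0.106), and r was 0.951 without the 2 arrays farthest from the median of Dbp, BPA replicates 1 and 3, and 0.803 without both replicate 3 arrays. Clock ran opposite to Dbp, with r = -0.947 (exact permutation p = 0.00556, adjusted 0.0264), rho = -0.829 (exact p = 0.0583, adjusted 0.123) with r = -0.997 without BPA replicates 1 and 3 and -0.806 without both replicate 3 arrays. Per1 ran opposite to Arntl, with r = -0.940 (exact permutation p = 0.00556, adjusted 0.0264), rho = -0.829 (exact p = 0.0583, adjusted 0.123) and r = -0.945 without both replicate 3 arrays, which were the farthest in Arntl. With the probe sets of Arntl averaged (Per1 has 1), r was -0.536, and 0.117 without both replicate 3 arrays, so this relation rests on the brightest Arntl probe set.

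Dbp and Arntl had r = -0.956 (exact permutation p = 0.00278, adjusted 0.0264) and rho = -0.943 (exact p = 0.0167, adjusted 0.106), but r was -0.592 without both replicate 3 arrays. Tef and Arntl had r = -0.951 (exact permutation p = 0.0111, adjusted 0.0422) and rho = -0.886 (exact p = 0.0333, adjusted 0.106), and without those arrays r was -0.214, so this relation rests on them. Clock and Arntl, the activator pair, had r = 0.885 (exact permutation p = 0.0194, adjusted 0.0528) and rho = 0.714 (exact p = 0.136, adjusted 0.199), and r was 0.00033 without them. Per1 and Dbp had r = 0.857 (exact permutation p = 0.0181, adjusted 0.0528) and rho = 0.943 (exact p = 0.0167, adjusted 0.106), with 0.801 without BPA replicates 1 and 3 and 0.604 without both replicate 3 arrays. Of the 19 pairs 5 passed after adjustment, and 14 did not, among them Clock with Arntl and Per1 with Dbp. Cry1 had r = -0.770 with Dbp (exact permutation p = 0.0528, adjusted 0.125) and 0.758 with Arntl (p = 0.0833, adjusted 0.156). Without the 2 farthest arrays these were -0.331 and 0.526, among the 3 controls 0.600 and -0.036, and among the 3 BPA arrays -0.999 and 0.980, so the sign of both over the 6 arrays is that of the BPA arrays and not of the controls. Nr1d1 split likewise, with r = -0.969 with Dbp in controls and 0.985 after BPA, and 0.654 and -0.9999 with Arntl. Nr1d2 had -0.421 and 0.939 with Dbp, but -0.171 and -0.874, of the same sign, with Arntl. Each of these within-group values rests on 3 arrays and was not tested, so no difference between the groups can be read from them. No pair passed when all probe sets of a gene were averaged (smallest adjusted exact p = 0.311), where r was 0.737 for Tef and Dbp and -0.715 for Dbp and Arntl. For Clock and Dbp it fell to -0.412 and for Tef and Arntl to -0.074. These averages include the untested probe sets, among them the dim one of Clock that went the other way. Without both replicate 3 arrays the averaged Dbp and Arntl had r = 0.336, so their opposite course also depends on the probe sets used. On deviations from the group means none passed either (smallest adjusted exact p = 0.211), but with 36 pairings the smallest unadjusted p is 0.0278, which 1 pair alone could not carry past the adjustment; r there was 0.975 for Tef and Dbp, -0.953 for Clock and Dbp, -0.962 for Per1 and Arntl and -0.956 for Dbp and Arntl.

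**Figure D3:**
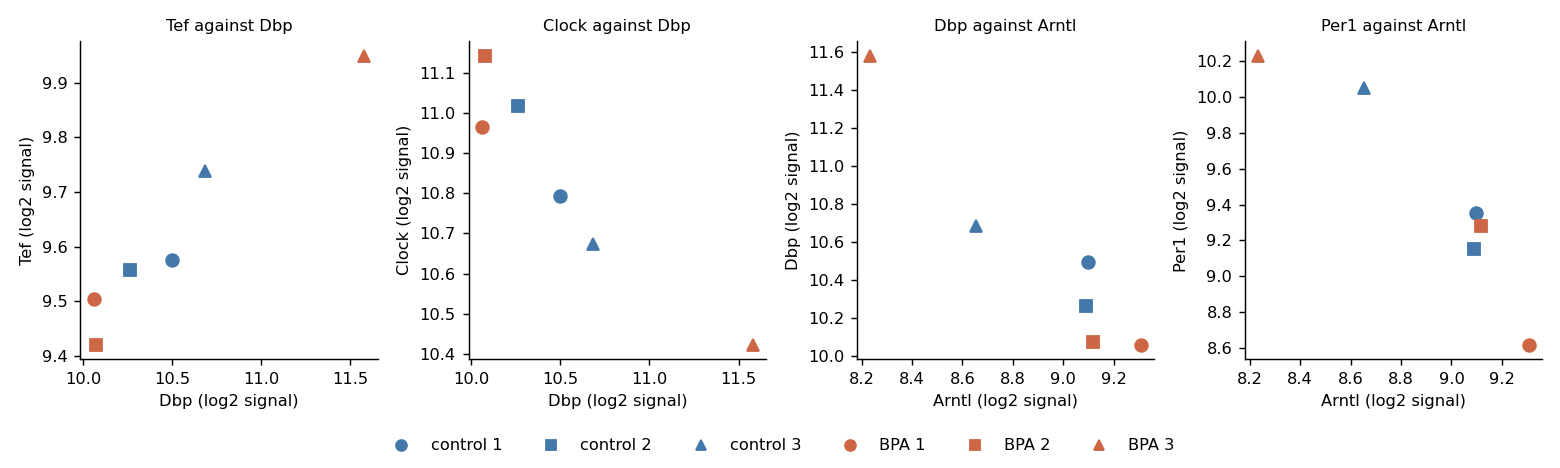
Log2 signals of 4 pairs of clock genes on the 6 arrays, with colour for the group and symbol for the replicate number. Tef lies along a rising line with Dbp (r = 0.971), Clock and Dbp along falling lines (r = -0.947 for Clock against Dbp and -0.956 for Dbp against Arntl), as does Per1 against Arntl (r = -0.940), with BPA replicate 3 at an end of each.

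Set against all measured genes, each by its brightest tested probe set, Tef was number 3 of 11786 in likeness to Dbp, Per1 number 184 and Per3 number 904. At the opposite end, Arntl was number 96 from the bottom, Clock 134 and Cry1 1459, and Nfil3, the D-box repressor gene chosen here after its values were seen, was number 523 from the bottom (r = -0.881). Nr1d1 (0.555), Cry2 (0.542) and Nr1d2 (0.521) had 14.6%, 15.2% and 16.2% of genes above them, and Per2 (0.310) had 25.9%. Cry1 had 12.4% of genes below it, and the median r of all genes was -0.192. With 6 arrays that share a strong common axis, 5% of genes had an r above 0.758 and 5% below -0.873, so a high r alone is common. Among genes with an SD of at least 0.3, those most like Dbp were Asic1 (r = 0.961), Rab17, Snhg5, Celf5 and Minar2 (0.953), and those most opposite were Scfd2 (-0.992), Zfp354c, Dpp10, Ccser1 and Neurl1a (-0.980). None of these is a clock gene, but the limit of 0.3 left out Tef (SD 0.19), Clock (0.26) and Nr1d1 (0.28) in advance.

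**Figure D4:**
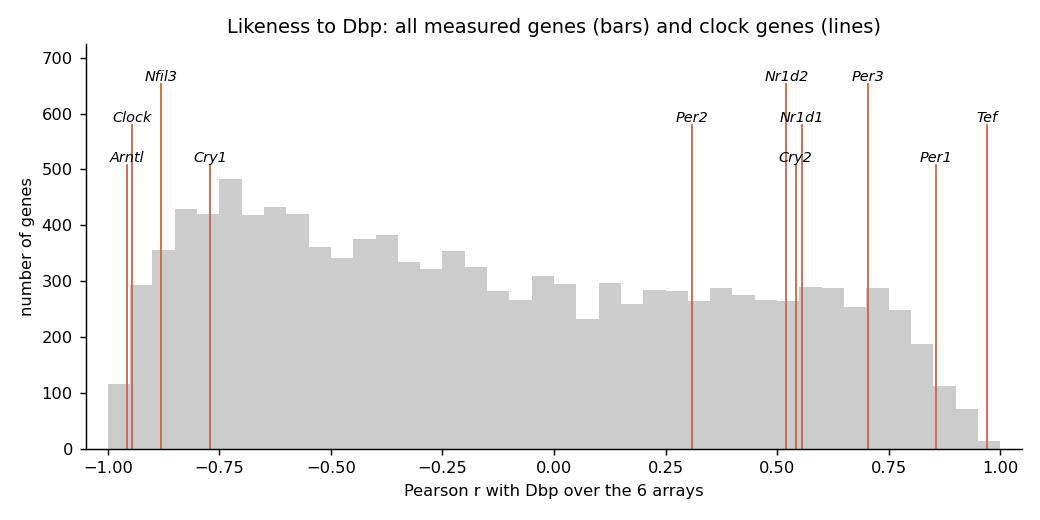
Number of genes by their Pearson r with Dbp over the 6 arrays (grey bars, 11786 genes), with lines at the r of each clock gene. Tef (0.971) and Per1 (0.857) lie in the upper tail and Arntl (-0.956) and Clock (-0.947) in the lower tail, while Per2, Cry2, Nr1d1 and Nr1d2 lie between 0.310 and 0.555.

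The comparison of BPA with control asked whether clock transcripts differ after treatment, and no member passed the test. By limma's moderated test 0 of the 17 tested probe sets had an adjusted p under 0.05, as did 0% of all 22518 tested probe sets, and 0 of the 17 had an unadjusted p under 0.05, against 6.47% of all. The groups overlapped on all 17, where 12.2% of all tested probe sets had groups that did not overlap. The mean was lower after BPA for 7 and higher for 10, where 47.4% of all tested probe sets were lower, with a median difference of 0.0027 against 0.011 over all tested probe sets. The members varied more between arrays than most: the median SD over the 6 arrays was 0.36 for the 17 probe sets and 0.19 for all tested.

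The largest difference among the 17 tested probe sets was that of Nr1d2, at 11.64 ± 0.19 in controls and 11.20 ± 0.38 with BPA (mean ± SD over 3 arrays each), -0.44 ± 0.21 (SE, limma, 95% confidence interval -0.93 to 0.053, adjusted p = 0.794). Per3 had 7.88 ± 0.24 in controls and 7.50 ± 0.39 with BPA, a difference of -0.38 ± 0.23 (-0.92 to 0.16, adjusted p = 0.832), though its second tested probe set differed by 0.0027 ± 0.32. Among the 7 untested, dim probe sets the means of 1 for Per3 and 1 for Clock differed more, by -0.70 and -0.60, with overlapping groups. The untested probe set of Nr1d2 went the other way from its brightest, by 0.18. Nr1d2 and Per3, on their brightest probe sets, were lower in 2 of the 3 BPA arrays than in any control. Per2 differed by -0.30 ± 0.30 (adjusted p = 0.888) and -0.18 ± 0.51 on its 2 tested probe sets, and Per1 by -0.14 ± 0.43 (adjusted p = 0.964). The cryptochromes Cry1 and Cry2 differed by 0.18 ± 0.30 and 0.082 ± 0.253 (adjusted p = 0.932 and 0.966). Dbp, with 10.48 ± 0.21 in controls and 10.57 ± 0.87 with BPA, differed by 0.089 ± 0.408 (-0.88 to 1.06, adjusted p = 0.980), and its other probe set by 0.28 ± 0.34. Its SD after BPA comes from BPA replicate 3. Clock (0.015 ± 0.203), Nr1d1 (0.013 ± 0.216) and Tef (5.2e-05 ± 0.16) differed least on their brightest probe sets, and the other tested probe sets of Clock and Tef by -0.33 to 0.11. The width of the 95% confidence intervals differed between probe sets: on their brightest probe sets the interval of Tef ran from -0.39 to 0.39 and that of Clock from -0.47 to 0.50, while that of the second Per2 probe set ran from -1.40 to 1.04. Each interval spans the differences compatible with that probe set's values at 3 arrays per group, without adjustment for the number of probe sets.

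**Figure D5:**
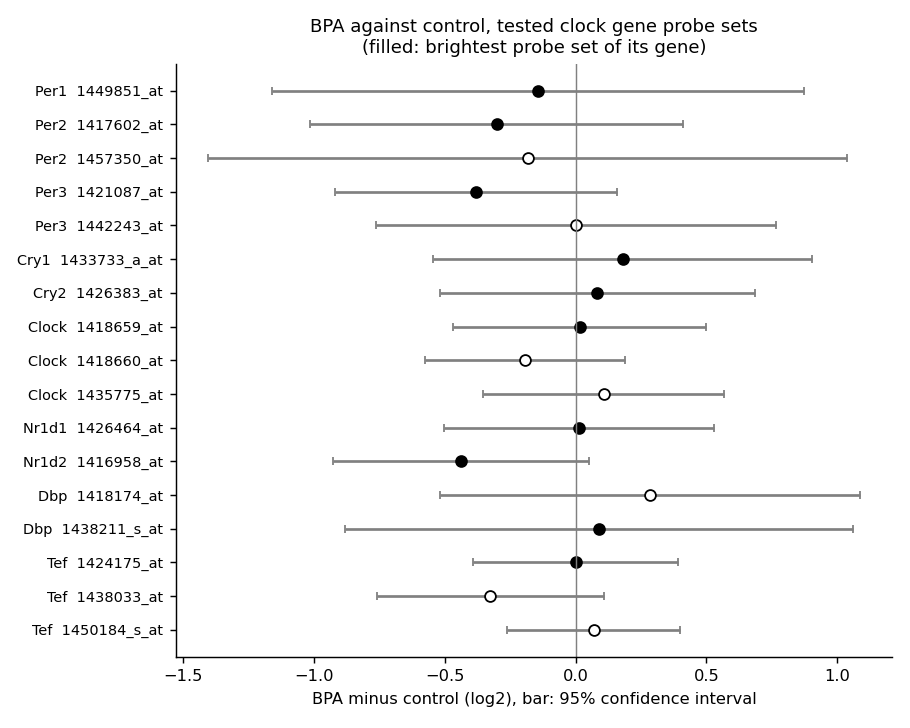
Difference in log2 signal between BPA and control for the 17 tested probe sets, with 95% confidence intervals from limma (n = 3 per group); filled points are the brightest probe set of each gene. All intervals include 0, from Nr1d2 at -0.44 to Dbp at 0.28 on its second probe set.

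The sign of the Dbp difference turned without BPA replicate 3 or without control replicate 2 (-0.020). Without BPA replicate 3 Dbp differed by -0.41 ± 0.15 (SE, limma, adjusted p = 0.317), and without both replicate 3 arrays by -0.31 ± 0.14 (adjusted p = 0.412). Over its alternatives the adjusted p of Dbp lay between 0.317 and 0.999. In the latter fit the groups did not overlap for 8 of 16 tested probe sets, 6 lower and 2 higher after BPA, where 44.9% of all tested probe sets did not overlap, so the members' share is near the background. The 6 lower were those of Dbp, Tef, Nr1d1, Nr1d2 and Per3 (2 probe sets), and the 2 higher were those of Cry1 and Clock. Without BPA replicate 3 alone the count was 7 of 16, against 33.7% of all. The 3′ minus 5′ balance of actin control probe sets, a sign of RNA length, was 3.35 to 3.80 in controls and 2.61 to 2.98 after BPA, and its part in these differences was not tested.

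Of 38 other genes of the clock and its outputs, 35 were on the array and 28 entered the test. Of the 28, 0 passed in limma after adjustment and 0 had an unadjusted p under 0.05, against 6.47% of all tested probe sets. After BPA 17 were higher and 11 lower, with a median of 0.037. Those with the smallest p were Ciart, a repressor of the CLOCK and BMAL1 pair, with 6.93, 6.85 and 7.06 in controls and 7.13, 7.18 and 7.25 after BPA (0.24 ± 0.11, SE, adjusted p = 0.791), Zfhx3 at -0.49 ± 0.25 (adjusted p = 0.798), the LXR gene Nr1h3 at 0.22 ± 0.13 and the deacetylase gene Sirt1 at -0.31 ± 0.20. Ciart was the only one of the 28 whose groups did not overlap, a smaller share than the 12.2% of all tested probe sets. Arntl differed by -0.060 ± 0.295.

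Other gene lists were read over the same arrays. Acinar markers, as a mean of 13 genes relative to the 6 arrays, stood at 0.29, 0.57 and -1.38 in controls and 0.87, 0.072 and -0.42 after BPA. Of 15 glucocorticoid and cAMP responsive genes, all on the array and 13 tested, 4 were higher and 9 lower after BPA and 0 passed, with a median of -0.053. As a mean relative to the 6 arrays the list stood at 0.045, -0.0040 and 0.053 in controls and -0.068, -0.069 and 0.044 after BPA. Replicate 3 had the highest mean of each group, but control replicate 1 (0.045) lay at the level of BPA replicate 3 (0.044). Some members, named after their values were seen, separated replicate 3, and most of these were higher there. Both replicate 3 arrays lay above all others for Tsc22d3, Klf9, Mt1, Mt2 and, narrowly, Nr4a1, where 14.6% of all tested probe sets did so. Of the tested members only Ddit4 had both below all others, where 21.3% of all tested probe sets did so. Klf9 read 13.34, 13.35 and 13.66 in controls and 13.22, 13.30 and 13.59 after BPA. The stress gene Ddit4 read 11.80, 11.85 and 9.94 in controls and 11.88, 11.54 and 10.01 after BPA. The metallothionein gene Mt2 read 11.85, 11.25 and 12.79 against 11.41, 11.67 and 12.64. Other members did not separate replicate 3, among them Fkbp5 (10.27 on both replicate 3 arrays, 9.83 to 10.74 over the 6) and Sgk1. The part of exocrine tissue, of stress and of the hour of isolation in the pattern of the clock genes was not tested.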

How the data were processed

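The authors deposited 1 log2 value per probe set and array. The submitters' processing notes name MAS5, with no version. How probes were summarised and scaled is not recorded in the labels or headers. Values were used as deposited. Groups and replicate numbers came from the sample titles; nothing says how many animals each sample holds, so p-values measure the spread between these samples. Genes were named from the platform annotation, and all 10 members matched the RefSeq gene table. Probe sets with a mean above the median of all (6.60) were tested with limma 3.58.1 in R 4.3.3 (lmFit and trended eBayes, two-sided, p-values adjusted by Benjamini-Hochberg over 22518 probe sets, threshold 0.05). The fit was tested on simulated data. Correlations used exact permutations of the 720 pairings (two-sided). Every member probe set is reported; of the other clock genes the 4 with the smallest p, Arntl and Npas2 are named, and for likeness to Dbp the 5 genes at each end. Members, lists and tests were chosen with earlier results of these data known. Alternatives were other scalings, filters and variance moderation, a replicate block, arrays left out, averaged probe sets and deviations from group means. Figures were drawn with matplotlib 3.10.9.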

Additional observations from a re-analysis of the deposited data

How the results depend on the processing

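With 3 arrays per group, probe sets near the background have no detection call, and the members' intervals differ in width, from that of 1 Tef probe set (-0.26 to 0.40) to that of the second Per2 probe set (-1.40 to 1.04). The counts of 0 called probe sets, among the members and over the table, stayed at 0 under all 14 alternatives each, with 0 to 4 members at an unadjusted p under 0.05. The numbers of the replicates paired the arrays only in part (deviations from the group means correlated at 0.476, 0.078 and 0.706 for numbers 1, 2 and 3). For numbers 1 and 3 the array of the same number was the best match in the other group, and for number 2 it was not. With the replicate number as a block, 0 members and 0 probe sets passed, 2 of 17 members had an unadjusted p under 0.05 where 13.5% of all did, and control replicate 2 correlated best with BPA replicate 1. The count of members whose groups do not overlap, 0, ranged from 0 to 7 with each array left out and was 8 without both replicate 3 arrays, an alternative chosen after seeing the data; fewer arrays make overlap rarer. The 5 correlated pairs became 6 under quantile normalization and 7 under median centring, 0 with averaged probe sets and 0 with deviations from the group means, where only 36 pairings exist, so that a pass was nearly out of reach. Of 141 alternative values of the members' differences 119 kept their sign, 22 did not and 0 passed. Signs turned with arrays left out for Per1 (-0.57 to 0.24), Per2 (-0.53 to 0.022), Cry2 (-0.11 to 0.30), Clock (-0.13 to 0.23), Nr1d1 (-0.17 to 0.18), Dbp (-0.41 to 0.34) and Tef (-0.16 to 0.10). Without both replicate 3 arrays Nr1d1 was -0.29, Dbp -0.31 and Tef -0.11. Averages of the tested probe sets alone gave -0.024 for Clock and -0.086 for Tef. The cause of these turns was not tested. Nr1d2 (-0.64 to -0.27), Per3 (-0.61 to -0.19) and Cry1 (0.00031 to 0.53) kept their sign under all alternatives run.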
